A study of Mus musculus with 4 samples.

Results

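Trim12a, Trim12c, Trim30a, Trim30d and Trim34a are 5 neighbouring antiviral genes of mouse chromosome 7. They are 5 of the 34097 genes in the count tables of a study of transplanted mouse hearts. They were picked by name because of their counts in these same libraries. The rule sums raw UMIs (unique molecular identifiers, each standing for 1 captured RNA molecule) per library and sets graft-resident cells against infiltrating leukocytes, as a possible sign of the genotype a cell carries. That contrast chose the genes, so it is given below as a description, with no test. Each symbol was carried by 1 identifier.

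The hearts were collected on day 5 after grafting and studied by droplet single-cell RNA sequencing of the 3' ends of transcripts. An allogeneic graft comes from a genetically different donor and an isogeneic graft (isograft) from a donor identical to the recipient. The labels give 3 allogeneic libraries, replicates 1, 2 and 3, and 1 isogeneic library. They name no strain, sex, age, cell sort or drug, and whether the replicates are 3 different animals is not said. The p-values below therefore cover the spread of these libraries alone, and that spread may be technical. All groups share the surgery and the day of collection.

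TRIM (tripartite motif) proteins are ubiquitin ligases with a RING finger, a B-box and a coiled coil, and many also carry a PRYSPRY domain that recognises viral proteins. Many TRIM genes are switched on by interferons through sites called interferon-stimulated response elements. The mouse genes Trim5, Trim12a and Trim12c are relatives of the primate retrovirus restriction factor TRIM5. Trim12a is known as a short form without the PRYSPRY domain. Trim30a is known for curbing NF-kB signalling downstream of Toll-like receptors, and Trim30d is its close relative. Trim34a is an interferon-induced member with a near-identical neighbour, Trim34b. The locus is known to vary in gene content and sequence between mouse strains.

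In the GENCODE M21 annotation of GRCm38, the members span 263.4 kb of chromosome 7, from 104244457 to 104507849, which holds 9 protein-coding genes, all of the TRIM family. Trim34a (ENSMUSG00000056144) lies on the plus strand from 104244457 to 104262234. The other members lie on the minus strand: Trim12a (ENSMUSG00000066258) from 104299894 to 104315466, Trim12c (ENSMUSG00000057143) from 104338754 to 104353362, Trim30a (ENSMUSG00000030921) from 104409025 to 104465193 and Trim30d (ENSMUSG00000057596) from 104470014 to 104507849. Trim5, Trim34b, Trim30b and Trim30c lie between them. Each member overlaps an annotated non-member gene: Gm15133 (Trim12a), Gm25405 (Trim30a) and Gm47248 (Trim34a) on the opposite strand, and Gm27995 (Trim12c) and Gm16464 (Trim30d) on the same strand. Whether the counting used strand is not given, so reads of these partners cannot be told apart from those of the members.

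**Figure D1:**
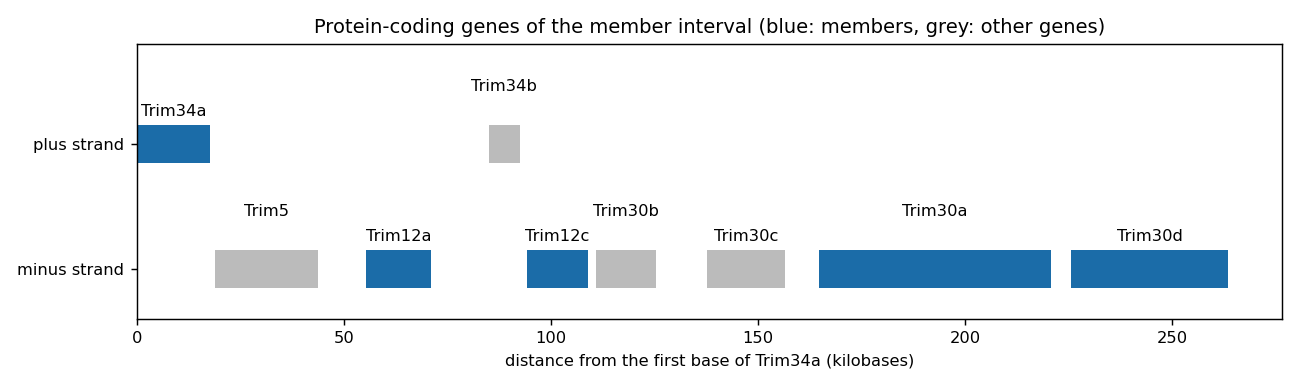
Protein-coding genes of the interval that holds the 5 members, drawn to scale by distance from the first base of Trim34a in kilobases, with the plus strand above and the minus strand below. Members are blue and the other 4 genes grey, and only Trim34a and Trim34b lie on the plus strand.

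The members resemble each other to different degrees, which decides how far their counts can be separated. Trim12a has a coding sequence of 894 bases and Trim12c one of 1494 bases, and they matched at 57.6% of aligned columns. Trim12c and Trim5 matched at 96.6%, Trim30a and Trim30d at 90.0%, and Trim34a and Trim34b at 98.8%. The assay reads transcript ends. For each gene the transcript with the longest coding sequence was taken. Of the 451 windows of 50 bases in its last 500 bases, none of Trim12a, Trim30a or Trim34a occurred in another gene's transcripts. For Trim30d it was 2 windows (found in Trim30c) and for Trim12c 35 windows (found in Trim5). For Trim34b, 200 of 451 windows (44.3%) occurred in a transcript of Trim34a. Counts of Trim34b are therefore uncertain, and so are those of Trim34a where its reads come from that shared stretch.

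The start regions show what the members share. The 150 bases before the RefSeq start of 4 members are given here 5' to 3' (GRCm38.p6), with the letters of the response element in capitals (TTTC, any 2 bases and TTTC, which reads as GAAA, any 2 bases and GAAA on the other strand).
Trim12a: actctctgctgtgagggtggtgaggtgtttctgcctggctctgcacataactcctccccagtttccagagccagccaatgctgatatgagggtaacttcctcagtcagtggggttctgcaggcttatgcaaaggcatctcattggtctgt
Trim12c: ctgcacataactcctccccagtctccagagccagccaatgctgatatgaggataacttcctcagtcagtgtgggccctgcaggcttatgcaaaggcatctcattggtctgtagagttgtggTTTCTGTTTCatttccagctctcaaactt
Trim30a: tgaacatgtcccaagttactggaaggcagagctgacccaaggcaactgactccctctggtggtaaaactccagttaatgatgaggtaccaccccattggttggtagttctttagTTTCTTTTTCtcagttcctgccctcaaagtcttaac
Trim30d: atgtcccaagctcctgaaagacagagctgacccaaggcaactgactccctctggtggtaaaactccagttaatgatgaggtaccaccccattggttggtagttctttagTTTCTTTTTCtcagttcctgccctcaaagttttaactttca
They lie on the minus strand at chr7:104315496-104315645 (Trim12a), chr7:104353350-104353499 (Trim12c), chr7:104465194-104465343 (Trim30a) and chr7:104507850-104507999 (Trim30d). The letters GAAA, any 2 bases and GAAA, searched on both strands from 250 bases before to 50 bases after the start, occurred in 1131 of 32851 mouse promoters (3.44%). They occurred once in the window of each of the 5 members. The match began 29, 36 and 41 bases before the start in Trim12c, Trim30a and Trim30d. In Trim12a and Trim34a it began 10 bases after the annotated start, as TTTCTGTTTC and TTTCAGTTTC, outside the stretch printed for Trim12a. No window of Trim34b, Trim30b, Trim30c or Trim6 held it, and that of Trim5 did. Farther along the chromosome, the window of Trim21 held 2 matches and those of Trim68 and Trim66 held 0. The letters of the gamma-activated site, TTC, any 3 bases and GAA, also searched on both strands, were in none of the 5 members' windows and in 8.3% of all promoters. The window of Trim30c held 1 such match.

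Pairs of members repeat long stretches of these windows. Trim30a and Trim30d shared an identical run of 118 bases that includes the response element. Trim12a shared an identical run of 241 bases, response element included, with its non-member neighbour Trim5, displaced by 59 bases relative to the annotated starts, and one of 71 bases with Trim12c. Trim34a and Trim34b, almost identical in coding sequence, had no run longer than 11 bases in common there. A match to these letters is a description of the sequence, not a measured binding site.

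Across the series, the libraries held 51054446, 63434265, 51463909 and 100038951 UMIs (allogeneic replicates 1 to 3, then the isograft) over 6160 to 11473 barcodes, of which 4784 to 10349 per library were kept. Any pair of libraries shared 14 to 31 barcodes, at most 0.473% of the smaller one. Between 55.0% and 74.6% of kept cells entered 1 of 9 classes by marker genes. Resident cells (endothelial, mural and fibroblast) numbered 253, 722, 1891 and 5312 and leukocytes 2377, 3795, 1566 and 2412. Replicate 3 stood apart from the other allografts: the chi-square per gene was 19.8 for replicates 1 and 2, but 392 and 415 when either was set against replicate 3. Fibroblasts were 36, 94 and 1361 cells in replicates 1 to 3 and 4345 in the isograft, and the isograft held 23 T cells, 6 NK cells and 5 dendritic cells.

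Levels are given as CPM, the UMIs of a gene scaled to the same total of UMIs in every class and library. The classes were checked on genes that the gates did not use. Ptprc, the pan-leukocyte gene of CD45, read 0 to 25.8 CPM in resident classes of the allografts and 299 to 2471 in their leukocyte classes. Pecam1, of endothelial junctions, read 592 to 904 CPM in endothelial cells and up to 154 in leukocyte classes of the allografts. Other check genes were less clean. Tyrobp read up to 131 CPM in resident classes of the allografts and 20.3 to 3511 in their leukocyte classes. Col3a1 read 4204 to 10066 in fibroblasts, and up to 163 in allograft and 308 in isograft leukocyte classes. The heart muscle transcript Tnnt2 read up to 161 in allograft leukocyte classes. Of the 48 leukocyte markers of the panels, 29 to 43 had a UMI in the resident cells of a library. Their summed level there was 584, 530.0, 523 and 395 CPM, against 3756 to 6249 in leukocytes. The 24 resident markers summed to 63.2, 63.1, 147 and 205 CPM in leukocytes and to 6020 to 18866 in resident cells. The part of such carried-over RNA in the values below was not tested.

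Trim12a, the short relative of TRIM5, was found in the resident cells of all 3 allografts and was not detected in those of the isograft. In endothelial cells it read 105, 112 and 186 CPM in replicates 1 to 3 (200, 403 and 361 UMIs) and 0 in the isograft, where 0 of 3794886 UMIs allows up to 0.791 CPM. All allogeneic libraries were therefore at least 133-fold higher. In fibroblasts it read 31.4, 34.0 and 53.2 CPM and again 0 in the isograft, at least 514-fold higher, with 0 counts there among 4345 cells. Mural cells, the pericytes and smooth muscle of vessel walls, read 124, 74.6 and 132 CPM on only 5, 10 and 11 UMIs, and 0 in the isograft.

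Leukocytes of the same allografts held few Trim12a UMIs. T cells read 0.211, 0.347 and 1.22 CPM on 2, 4 and 3 UMIs. Monocytes and macrophages read 0.780, 1.03 and 1.48 on 13, 20 and 9 UMIs, with 1 UMI in the isograft. NK cells held 2, 0 and 3 UMIs and B cells 0, 0 and 3, which on few cells gave 19.2, 0 and 5.08 CPM and 0, 0 and 14.6 CPM. Neutrophils held 1 Trim12a UMI in the 3 allografts, and dendritic cells none on few cells. Over all resident cells the level was 85.9, 94.2 and 68.7 CPM, against 0.640, 0.760 and 1.85 over all leukocytes. The resident level was thus 134-fold (95% exact interval of counting error 82.0 to 235), 124-fold (82.3 to 196) and 37.2-fold (23.7 to 62.1) the leukocyte level. The mean log2 ratio was 6.41 ± 1.04 (SD, n = 3). In the isograft there was no ratio to give, as 0 of 53370784 resident UMIs and 1 of 11952126 leukocyte UMIs were Trim12a.

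The ratio was lowest in replicate 3. Fibroblasts, in which Trim12a read lower than in endothelial cells of every allograft, were 1361 of its 1891 resident cells, against 36 of 253 and 94 of 722 in replicates 1 and 2. The part of this cell mix in the ratio was not tested. With classes weighted equally the mean log2 ratio was 4.49, and without single replicates it was 6.09 to 7.01. As background, 7.36% of 11984 genes were at least 4-fold higher in resident cells than in leukocytes in all 3 allografts and 7.18% at least 4-fold lower. At least 16-fold higher were 459 (3.83%), and 253 had a lowest ratio at or above that of Trim12a. Since the rule used this contrast, nothing further is read from that place.

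**Figure D2:**
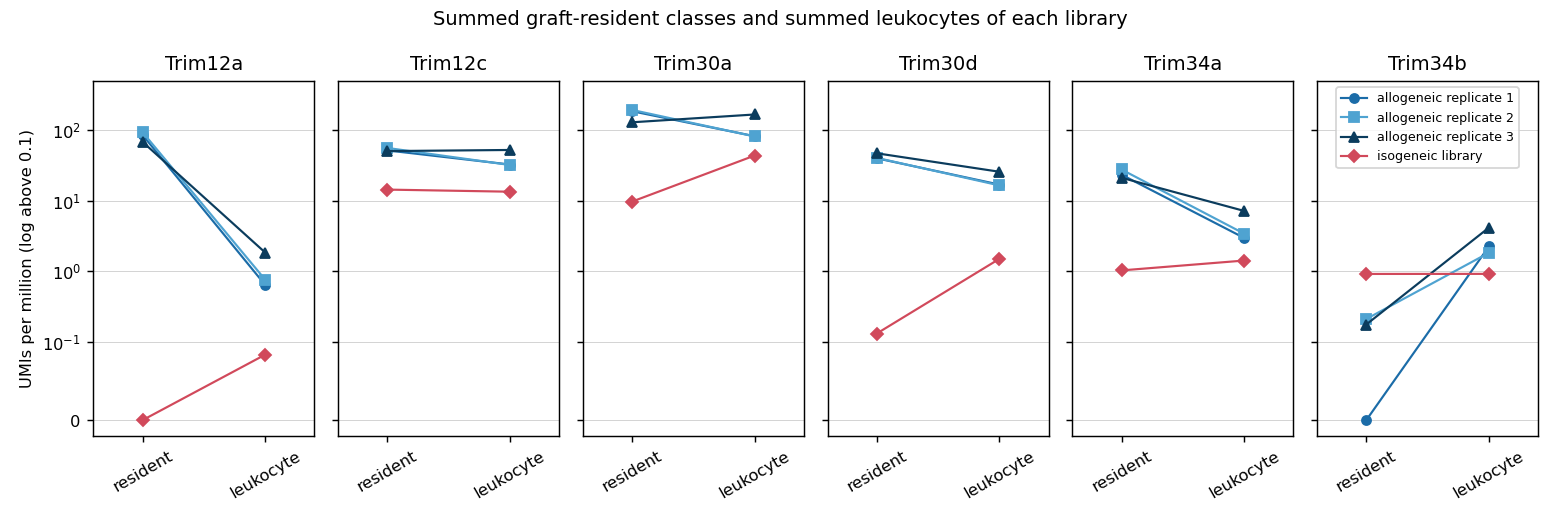
Level of each member, and of Trim34b, in summed resident cells and summed leukocytes of each library, in CPM (axis linear below 0.1 and logarithmic above). Trim12a falls from 68.7 to 94.2 in resident cells of the allografts to 0.640 to 1.85 in their leukocytes and is at 0 and 0.0837 in the isograft, while Trim34b slopes the other way in the allografts.

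Shares of cells with a UMI showed the same split for Trim12a. In endothelial cells 49.3%, 43.4% and 44.5% of cells had a Trim12a UMI in replicates 1 to 3, and 0 of 828 did in the isograft, which allows up to 0.362%. In fibroblasts the shares were 27.8%, 20.2% and 33.4%, and 0 of 4345 in the isograft. In T cells they were 0.253%, 0.304% and 0.938%, at median depths of 9507, 6912 and 4699.5 UMIs per cell, above the 7296, 4969 and 2265 of the endothelial cells. Thinned to 1000 UMIs per cell, the endothelial shares were 7.28%, 11.1% and 19.8%, and no thinned T cell held a Trim12a UMI. Thinning left out 3, 17 and 82 endothelial cells of replicates 1 to 3 as too shallow, and 52 of the isograft.

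Among the allograft monocytes and macrophages, 13, 17 and 9 cells had a Trim12a UMI (0.872%, 0.738% and 1.21%). Of these 39 cells, 21 also had a UMI of a resident-cell marker. Per replicate that was 53.8%, 47.1% and 66.7% of them, against 52.5%, 41.2% and 65.8% of the cells without Trim12a. Cells with Trim12a had median depths of 14151, 8971 and 10859 UMIs, and those without had 10816, 8085 and 7446. The T cell shares of the same replicates, 0.253%, 0.304% and 0.938%, were lower, at lower median depths. The part of free RNA in either was not tested.

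**Figure D3:**
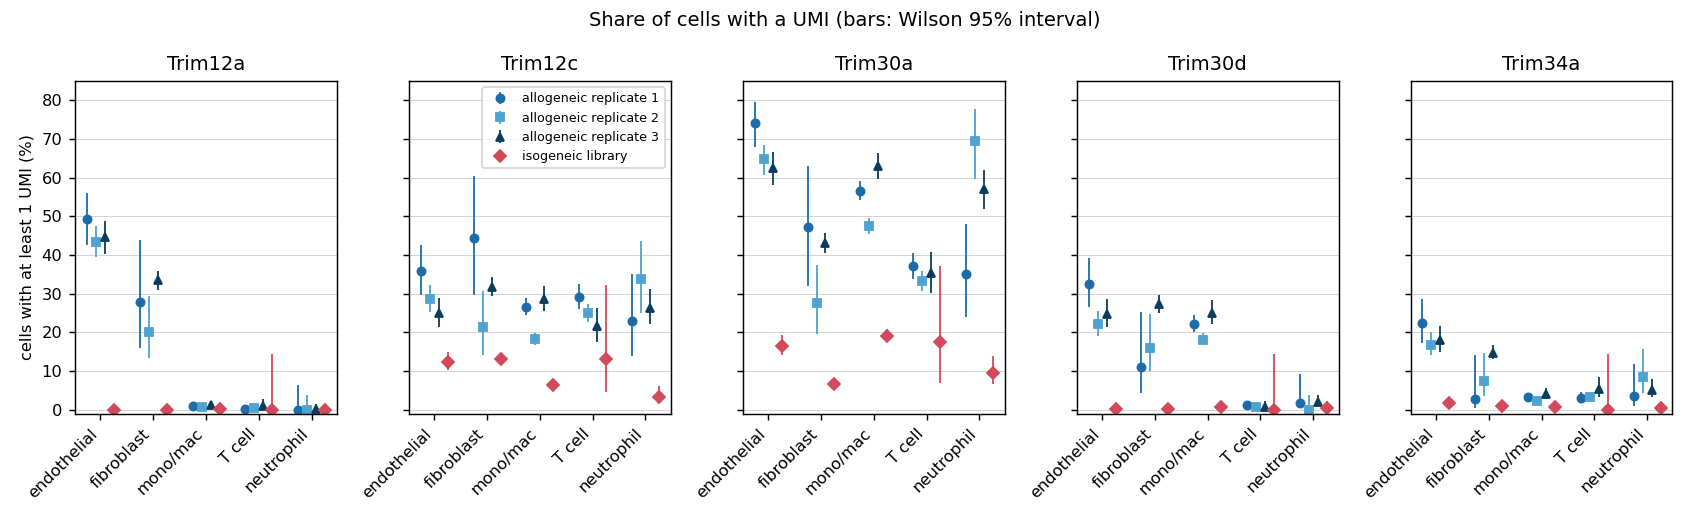
Percent of cells with at least 1 UMI of each member, by class and library, with Wilson 95% intervals. For Trim12a the endothelial cells of the allografts sit between 43.4% and 49.3% and all leukocyte classes drawn at 1.21% or less, and for Trim30d the monocytes and macrophages of the allografts sit near their endothelial cells.

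Trim30d, the close relative of Trim30a, differed from Trim12a in that allograft macrophages carried it. In endothelial cells it read 53.1, 48.2 and 90.8 CPM in replicates 1 to 3 and 0.264 in the isograft (1 UMI). The fold over the isograft was 202 (35.4 to 8039), 183 (32.4 to 7263) and 345 (61.1 to 13688), with intervals of counting error that are wide because of that single UMI. In fibroblasts it read 7.15, 19.0 and 41.8 CPM and 0.122 in the isograft (6 UMIs). In monocytes and macrophages it read 26.4, 26.4 and 41.8 CPM and 1.48 in the isograft (17 UMIs), or 17.8-fold (11 to 30.8), 17.8-fold (11 to 30.8) and 28.2-fold (17.2 to 49.1) higher. In each of these 3 classes all allografts lay above the isograft. A Trim30d UMI was found in 32.5%, 22.1% and 24.8% of allograft endothelial cells and 0.121% in the isograft, and in 22.2%, 18.1% and 25.1% of allograft monocytes and macrophages and 0.764% in the isograft. In allograft T cells the share was 1.14%, 0.684% and 0.625%.

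Other leukocytes of the allografts held little Trim30d. T cells read 0.949, 0.867 and 0.814 CPM on 9, 10 and 2 UMIs. B cells held none on few cells, and neutrophils held 1, 0 and 7 UMIs. Mural cells held 0, 0 and 1 UMI. The depth of replicates 1 and 2 allows up to 74.4 and 22.4 CPM, so a level like that of their fibroblasts was not detectable in them. The mural value of replicate 3 rests on 1 UMI. Resident cells read 40.1, 40.7 and 47.2 CPM and leukocytes 17.0, 16.5 and 25.8, a mean log2 ratio of 1.14 ± 0.23 (SD, n = 3). With lymphocytes and neutrophils as the only leukocytes it was 5.02. In the isograft the order was the other way, with 0.131 in resident cells (7 UMIs) and 1.51 in leukocytes (18 UMIs).

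Trim30a, known as a brake on NF-kB signalling, was found in every class of the allografts. Its level in allogeneic neutrophils was 337, 570.4 and 448 CPM, and 72.0 in the isograft. In endothelial cells it read 242, 243 and 377 CPM and 41.6 in the isograft. Monocytes and macrophages read 100.5, 92.7 and 175 and 42.7, and fibroblasts 42.9, 44.0 and 98.2 and 7.35. The allografts lay above the isograft in each of these 4 classes. T cells read 47.3, 54.7 and 80.2 CPM, while the 23 isograft T cells held 7 UMIs, or 174 CPM.

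Over the 6 classes with at least 20 cells in every allograft, the order of Trim30a by allogeneic mean was neutrophils (452 ± 117 CPM, SD, n = 3), endothelial cells (287 ± 77.9), monocytes and macrophages (123 ± 45.3), NK cells (90.0 ± 5.59), fibroblasts (61.7 ± 31.6) and T cells (60.7 ± 17.2). On fewer cells, dendritic cells (121 CPM), mural cells (66.7) and B cells (65.4) lay between monocytes and macrophages and fibroblasts. Among the 6 classes, neighbouring ranges overlapped at each step except from endothelial cells to monocytes and macrophages. The resident to leukocyte log2 ratio was 1.18 and 1.25 in replicates 1 and 2, -0.37 in replicate 3 and -2.17 in the isograft. Its direction in the allografts thus depended on the library, and the mean of 0.69 became -0.10 with classes weighted equally.

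Trim12c, the relative of TRIM5 with the longer coding sequence, was found in resident cells and leukocytes alike, with the lowest mean ratio between them of the 5 members in the allografts. Neutrophils read 125, 250.2 and 142 CPM and 25.9 in the isograft. Endothelial cells read 58.4, 63.4 and 87.7 and 30.6, fibroblasts 32.9, 25.0 and 45.9 and 13, and monocytes and macrophages 31.3, 25.8 and 49.2 and 12.5. All 3 allografts exceeded the isograft in these 4 classes. T cells of the allografts read 33.7, 38.1 and 36.6, and those of the isograft held 4 UMIs. The mean log2 ratio of resident cells to leukocytes was 0.47 ± 0.46 (SD, n = 3) in the allografts and 0.10 in the isograft. With classes weighted equally the allogeneic value was -0.030. Over the same 6 classes, the allogeneic ranges of Trim12c overlapped between every neighbouring pair below neutrophils. Mural cells, on fewer cells, had a mean of 81.1 CPM, above the 69.8 of endothelial cells.

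Trim34a, an interferon-induced member, had its highest allogeneic means in endothelial cells (40.5 CPM), mural cells (30.2) and neutrophils (27.7), whose ranges overlapped. Endothelial cells read 31.6, 33.2 and 56.8 CPM and 3.95 in the isograft (15 UMIs), which is 7.98-fold (4.48 to 15.1), 8.41-fold (4.90 to 15.5) and 14.4-fold (8.34 to 26.5) higher. Mural cells read 24.8, 29.8 and 36.0 on 1, 4 and 3 UMIs, and 4.06 on 2 UMIs in the isograft. Neutrophils read 15.7, 45 and 22.5 on 2, 9 and 19 UMIs, and 2.88 on 1 UMI in the isograft. Fibroblasts read 1.43, 8.0 and 16.6 on 1, 8 and 249 UMIs, and 0.774 in the isograft. Monocytes and macrophages read 2.88, 2.68 and 4.94 and 1.4. The resident to leukocyte log2 ratio was 2.98, 3.02 and 1.56 in the allografts and -0.46 in the isograft.

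Its near-identical neighbour Trim34b, which is not a member, had fewer UMIs in allograft than in isograft endothelial cells. How reads of the sequence shared by Trim34a and Trim34b were assigned was not tested. They held 0, 1 and 0 UMIs of Trim34b in the allografts and 14 in the isograft (3.69 CPM). Fibroblasts held 0, 0 and 3 UMIs in the allografts and 34 in the isograft (0.693 CPM). The depth of replicates 1 and 2 allows up to 4.29 and 3.0 CPM there, so a difference was not detectable in them. Over all resident cells that was 0, 1 and 3 UMIs against 49, while allograft leukocytes held 60, 58 and 43 UMIs (2.26, 1.84 and 4.18 CPM) and isograft leukocytes 11. In the isograft, Trim34b read 0.918 CPM in resident cells and 0.920 CPM in leukocytes. In endothelial cells the allografts' pooled level was 0.0364 times that of the isograft (exact interval of counting error 0.000860 to 0.239). The edgeR log2 change of Trim34b there was -4.36 (SE 1.38, adjusted p = 0.138), which missed the threshold. It was -3.99 without replicate 3 and -4.33 with no filter. Trim34b passed in both of these fits, where more genes of all kinds passed than in the main fit.

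**Figure D4:**
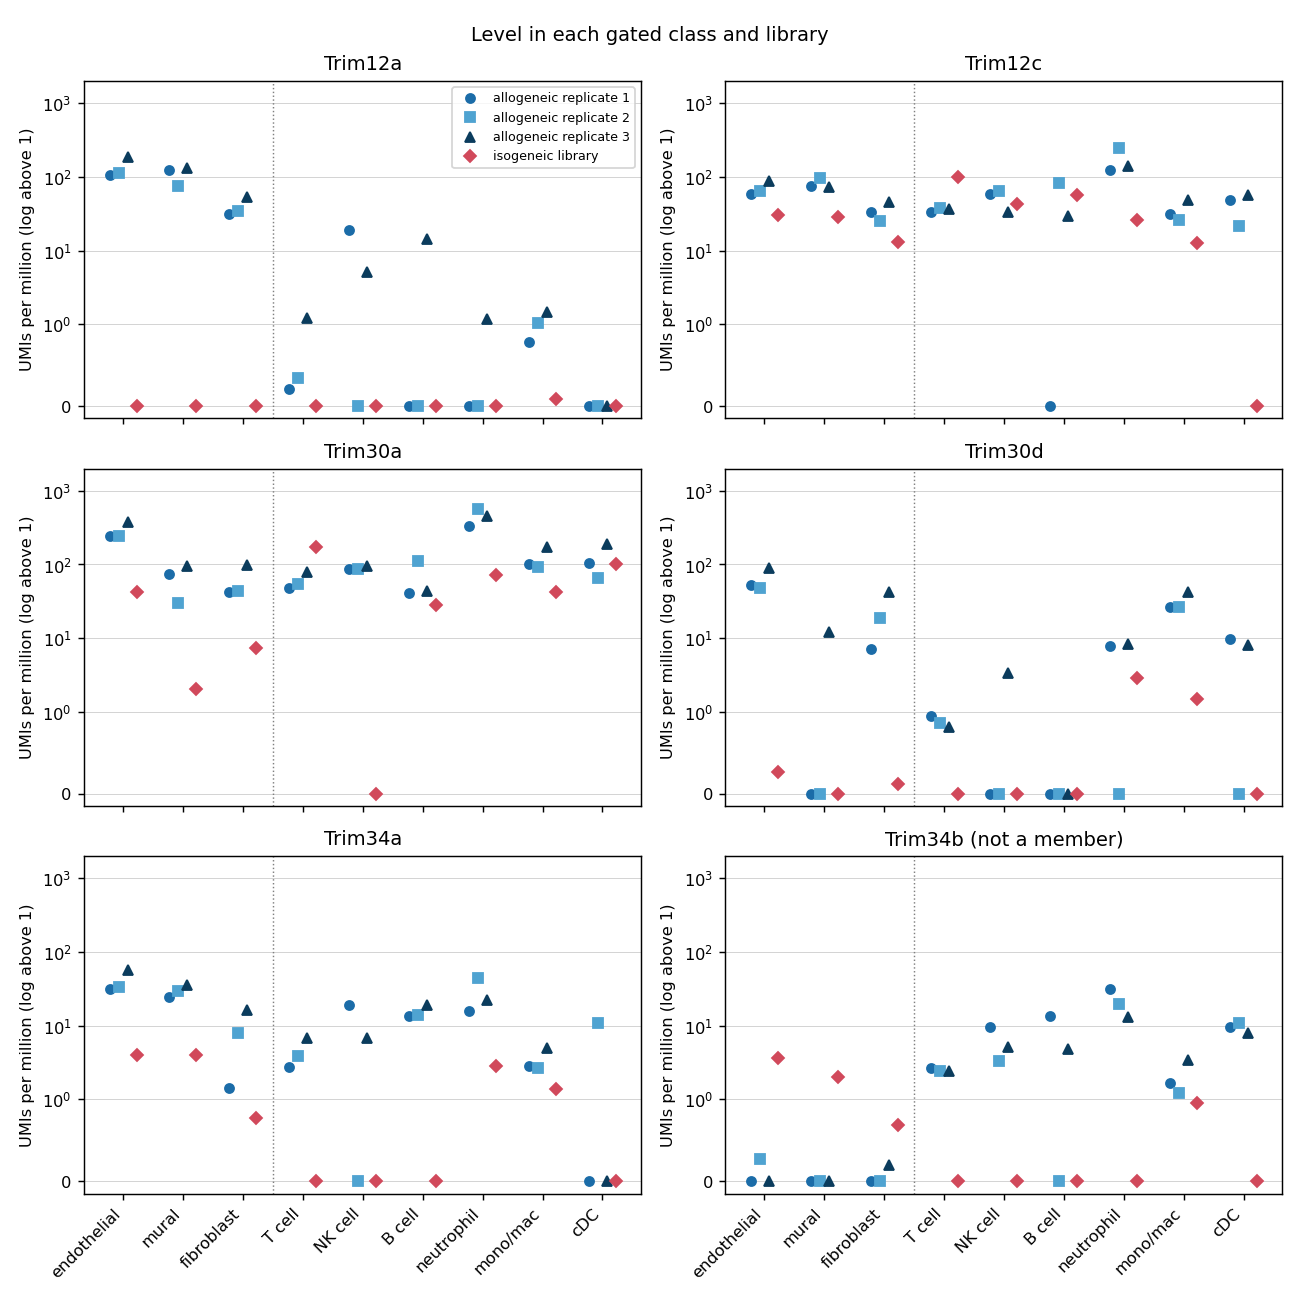
Level of each member, and of Trim34b, in the 9 gated classes of each library, in CPM (axis linear below 1 and logarithmic above), with resident classes left of the dotted line. Trim12a is at 31.4 or more in the resident classes of the allografts and at 0 in those of the isograft, and Trim34b reads 0 to 0.277 in endothelial cells of the allografts and 3.69 in the isograft.

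Trim5, which shares the 241-base start run with Trim12a, read 11, 8.31 and 10.8 CPM in allograft endothelial cells and 0 in the isograft, at least 10.5-fold the floor. In fibroblasts it read 5.72, 5.00 and 8.72 and 0.0204 in the isograft (1 UMI), and allograft leukocytes held 5, 7 and 6 UMIs in all. Trim30b and Trim30c, further relatives of Trim30a, had their highest allogeneic means in neutrophils. Trim30c read 290.0, 255 and 418 CPM there and 0 of 347179 UMIs in the isograft, at least 29.5-fold the floor in every allograft. Trim30c had 106 UMIs in isograft monocytes and macrophages (9.26 CPM), and 6.36, 5.52 and 62.4 CPM in the allografts. Trim30b read 212, 250.2 and 222 in allograft neutrophils and 72.0 in the isograft. Trim6, at the edge of the cluster, read 16.8, 10.8 and 18.6 in allograft endothelial cells and 6.85 in the isograft. Trim68 and Trim3, farther along the chromosome, read 1.89 to 3.37 and 20.9 to 24.6 in resident cells of the allografts and 3.11 and 19.2 in the isograft.

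Levels within each class were then compared between allogeneic and isogeneic libraries. This comparison differs from the rule's, but the members were picked on the same libraries, so their counts of calls are not independent evidence of direction. The edgeR quasi-likelihood test was fitted over all genes of a class, with adjusted p (Benjamini-Hochberg) under 0.05 as the threshold. In endothelial cells 4 of the 5 members rose, where 2.61% of all 12100 genes tested did and 1.64% fell. Trim30a rose by 2.83 on the log2 scale (SE 0.37, edgeR adjusted p = 0.0114), Trim30d by 7.73 (SE 0.78, edgeR adjusted p = 0.00459) and Trim34a by 3.38 (SE 0.49, edgeR adjusted p = 0.0153). The size of the Trim30d change rests on 1 isograft UMI. Its pooled fold over the isograft was 230, with an exact interval of counting error of 41.0 to 9093. Trim12a passed with an edgeR adjusted p = 0.00225, and its fitted change depends on a small added count. The level of at least 133-fold the isograft floor is therefore given in its place. Trim12c did not pass (1.24, SE 0.31, edgeR adjusted p = 0.0809). Without replicate 3 its log2 change was 1.10 and it passed, but many more genes of all kinds passed in that fit too.

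In fibroblasts 3 of the 5 members rose, where 2.1% of 14952 genes did and 0.615% fell. Trim12a passed with an edgeR adjusted p = 3.89e-05, Trim30d rose by 7.59 (SE 1.05, edgeR adjusted p = 0.0015) and Trim30a by 3.08 (SE 0.58, edgeR adjusted p = 0.0124). Trim34a (3.71, SE 0.95, edgeR adjusted p = 0.0631) and Trim12c (1.4, SE 0.46, edgeR adjusted p = 0.178) missed the threshold. Without replicate 1, which held 36 fibroblasts, both passed, and Trim34a also without replicate 2. These fits called more genes of all kinds than the main fit did.

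In monocytes and macrophages 1 of the 5 members rose, where 4.36% of 14896 genes did and 3.38% fell. Trim30d rose by 4.35 (SE 0.43, edgeR adjusted p = 0.0104), and a rise by 3.06 remained when cells with any UMI of another panel were left out (adjusted p = 0.0318). Trim12c (1.45, SE 0.39, edgeR adjusted p = 0.0843), Trim30a (1.47, SE 0.41, edgeR adjusted p = 0.0889), Trim34a (1.24, SE 0.54, edgeR adjusted p = 0.211) and Trim12a (3.44, SE 1.06, edgeR adjusted p = 0.112) did not pass. With DESeq2, Trim12c and Trim30a passed (adjusted p of 0.00689 and 0.00226). Without replicate 3 all 4 passed. In both of these fits more genes of all kinds passed than in the main fit, and without replicate 3 many more did.

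In neutrophils 3 members were measured well enough to test and 2 rose, where 5.59% of 3848 genes did and 0.624% fell. Trim30a rose by 2.88 (SE 0.64, edgeR adjusted p = 0.00712) and Trim12c by 2.94 (SE 0.70, edgeR adjusted p = 0.0109), while Trim34a did not pass (3.34, SE 1.55, edgeR adjusted p = 0.284). Both calls were lost when cells with any UMI of another panel were left out (Trim30a 2.27, adjusted p = 0.133, and Trim12c 4.08, adjusted p = 0.0836). In T cells, with 23 cells and 40163 UMIs in the isograft, edgeR called 0 of 12341 genes, 1208 had an unadjusted p under 0.05, and DESeq2 called 82. No change of a member in T cells is read from that fit.

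**Figure D5:**
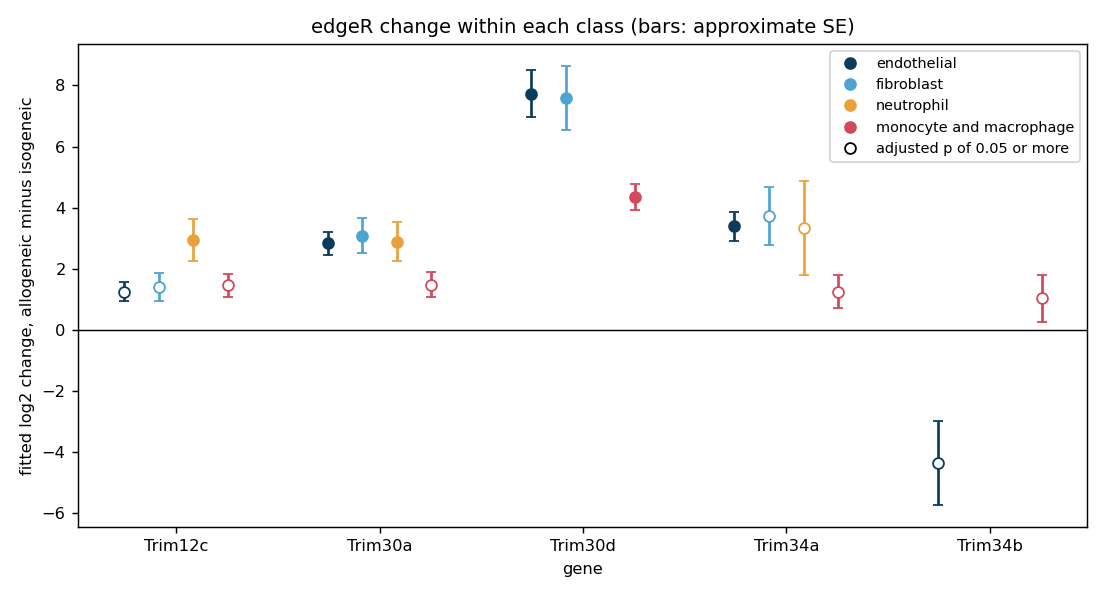
Fitted log2 change, allogeneic minus isogeneic, of 4 members and Trim34b in 4 classes, with approximate SE as bars and open symbols for an adjusted p of 0.05 or more. Trim12a is left out because it has 0 or 1 UMI in the isograft classes. Trim30d in endothelial cells and Trim34a in neutrophils are drawn but also rest on 1 isograft UMI, so their bars are uncertain. Trim30d lies at 7.73 and 7.59 in endothelial cells and fibroblasts and at 4.35 in monocytes and macrophages, and Trim34b, drawn where it was fitted, lies at -4.36 in endothelial cells and 1.02 in monocytes and macrophages, neither past the threshold.

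Other interferon-response genes of the same cells are set beside these changes. The labels name no strain, so donor genotype and a response to interferon cannot be told apart in the resident cells. The part of either in the members' changes was not tested. These lists and those of the paragraphs below were chosen with earlier results of these data known, so their counts are not independent evidence. Beside each count stands the share of all genes tested that rose. It was 2.61% in endothelial cells, 2.1% in fibroblasts, 5.59% in neutrophils and 4.36% in monocytes and macrophages. The median log2 change of the 5 members was 3.38 in endothelial cells and 3.71 in fibroblasts, where the median of all genes tested was 0.00 and -0.02. Of 21 interferon-gamma response genes, all 21 rose in endothelial cells (median 4.08) and in fibroblasts (median 4.46), 18 of 19 tested in neutrophils and 19 of 21 in monocytes and macrophages. The chemokine gene Cxcl9 read 7078, 6065 and 9588 CPM in allograft endothelial cells and 21.3 in the isograft. Of 29 type I interferon response genes, 22 rose in endothelial cells, 12 in fibroblasts, 9 in monocytes and macrophages and 24 of 25 tested in neutrophils. Among them, Bst2, the virus tether, read 3018, 2897 and 2908 CPM in allograft endothelial cells and 336 in the isograft, Isg15, a ubiquitin-like modifier, 694, 755 and 928 and 111, and the regulator Irf7 622, 647 and 714 and 36.6.

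The TRIM genes beyond the members were counted in the same way. Of 13 TRIM genes elsewhere in the genome with interferon-response or antiviral roles, 1 rose in endothelial cells, Pml, the organiser of nuclear bodies (edgeR log2 change 2.79, SE 0.29, adjusted p = 0.0047). In monocytes and macrophages Pml also rose, as 1 of 13 (1.34, SE 0.21, edgeR adjusted p = 0.0261), and in neutrophils Trim56, as 1 of 5 tested (4.46, SE 0.99, edgeR adjusted p = 0.00703). In fibroblasts edgeR called none of the 13, with 3 at an unadjusted p under 0.05 and 0 called by DESeq2. Trim25, an activator of the RNA sensor RIG-I, read 153, 133 and 145 CPM in allograft endothelial cells and 75.9 in the isograft (edgeR adjusted p = 0.0856). Of the other TRIM genes of the locus and its surroundings, 2 of 6 tested rose in endothelial cells, where 2.61% of all genes did: Trim5 (edgeR adjusted p = 0.0119) and the antibody receptor Trim21 (by 2.37, SE 0.34, edgeR adjusted p = 0.0148). In fibroblasts 1 of 5 rose, Trim5 (edgeR adjusted p = 0.00239), beside 2.1% of all genes, and in neutrophils 1 of 2, Trim30c (edgeR adjusted p = 6.95e-05), beside 5.59%. In monocytes and macrophages edgeR called 0 of 7, with 2 at an unadjusted p under 0.05 and 1 called by DESeq2.

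Trim30a is reported to act on the TAK1 complex of NF-kB signalling, so 14 genes of that route were counted. In endothelial cells edgeR called none of the 14, with 4 at an unadjusted p under 0.05 and 0 called by DESeq2, and the median log2 change was 0.38. Nfkbia, the inhibitor that NF-kB itself induces, read 597, 666 and 759 CPM in allograft endothelial cells and 479 in the isograft (edgeR adjusted p = 0.271). In monocytes and macrophages edgeR also called none of the 14, with 3 at an unadjusted p under 0.05 and 1 called by DESeq2, and Nfkbia read 1342, 1417 and 1447 and 1801 in the isograft (edgeR adjusted p = 0.258). Of the cytosolic DNA sensing genes, 2 of 7 tested rose in endothelial cells, Zbp1 (5.15, SE 0.33, edgeR adjusted p = 0.00154) and Ifi204 (3.28, SE 0.36, edgeR adjusted p = 0.00571). In monocytes and macrophages 4 of 7 did, among them Sting1 (1.79, SE 0.20, edgeR adjusted p = 0.0127).

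The members did not share a single pattern over cells. Across 27 points (a class in a library, at least 20 cells), Pearson's r of log2 levels between members lay between 0.043 (Trim12c and Trim30d) and 0.689 (Trim12c and Trim30a), and it was 0.642 for Trim12a and Trim34a. Points of a library share its depth, and this is a description. Among 14032 genes, the patterns most like Trim12a were those of Rpgrip1 (r = 0.940), Gbp11 (0.905), a guanylate-binding protein gene, and H2-Q6 (0.903), of MHC class I. For Trim12c they were Herc6 (0.837), Parp9 (0.832) and Irf2 (0.819), and for Trim30a Cd274 (0.890), the gene of PD-L1, H2-K2 (0.868) and H2-D1 (0.861). For Trim30d they were Apol7c (0.823), Zmynd15 (0.788) and ENSMUSG00000120996 (0.776), and for Trim34a Gm20663 (0.873), Gm19684 (0.848) and Irgm2 (0.810).

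The shift of the resident to leukocyte ratio between grafts was set against other genes, again as a description. For Trim30a the mean allogeneic ratio exceeded that of the isograft by 2.86 on the log2 scale, for Trim34a by 2.99, for Trim30d by 4.66 and for Trim12c by 0.37. The resident cells differed in make-up. Endothelial cells were 209 of 253, 601 of 722 and 512 of 1891 in replicates 1 to 3, and 828 of 5312 in the isograft. Within the isograft, Trim30a read 41.6 CPM in endothelial cells and 7.35 in fibroblasts, and Trim34a 3.95 and 0.774. The part of this cell mix in the shifts was not tested. Of 11757 genes with enough UMIs in every library, 240 (2.04%) had a ratio at least 2 log2 units higher in every allograft than in the isograft and 183 (1.56%) one lower by as much. Trim34a was 2.03 units above the isograft in its lowest allograft and Trim30a 1.8, and Trim12a and Trim30d had too few UMIs in the isograft to enter. By a stricter minimum of UMIs, the 5 genes with the highest mean shift were Hdc, Rapgef5, Lcn2, Itga6 and Pf4, and the 5 with the lowest were Inhba, Gbp2b, Phgdh, Nrg1 and Prkca. Hdc is a gate marker of neutrophils.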

How the data were processed

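Single-cell libraries of 3 allogeneic grafts and 1 isogeneic graft were analysed. The deposited values are raw UMI counts per gene and cell, made by the authors with Cell Ranger. The submitters' processing notes name version 3.1.0 and the mm10 build, and the file headers name cellranger 6.1.0. Which made the counts, the annotation release and the use of strand are not given in the sources used here. Barcodes were kept with at least 500 UMIs, 300 genes and at most 20% mitochondrial UMIs. The highest Scrublet scores (scanpy 1.11.5, Python 3.11.15) were removed at 0.8% per 1000 barcodes. Cells entered a class with UMIs of at least 3 of its 8 panel markers, and with no more than 1 marker of any other panel for every 3 of its own. Levels are CPM of UMIs summed per library and class, and are not compared between genes. Intervals are exact at 95%, a count of 0 was given a floor of 3 counts, and both cover counting error only. A fold over that floor leaves out the counting error of the allograft value.

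Allogeneic and isogeneic sums were compared per class with edgeR 4.0.16 (R 4.3.3; TMM, filterByExpr, quasi-likelihood F-test, Benjamini-Hochberg adjusted p under 0.05) where every library had at least 20 cells. The fit has 2 residual degrees of freedom, the 1 isogeneic library is taken to vary as much as the allogeneic ones do, and the SE is the change divided by the root of F. On simulated data with changes of 3 log2 units, 97.9% of changed genes were recovered in endothelial cells, 96.9% in fibroblasts, 94.9% in monocytes and macrophages, 88.2% in neutrophils and 22.6% in T cells. The simulation used a fixed dispersion and the same expected profile for every library, and changed only genes above a minimum of UMIs. It left out the way replicate 3 stood apart, so these shares do not give the power of the fits above, and a miss is not an absence of change. Alternatives, with DESeq2 1.42.0 among them, are given below. The members and all gene lists were chosen with earlier results of these data known. Named genes are the members, their TRIM neighbours with at least 50 UMIs, the 3 genes of most like pattern per member, up to 4 genes of highest level in each list and class, and the 5 lowest and 5 highest shifts of the ratio. Of the file's 34097 identifiers, 32403 were found in GENCODE M21. Start sequences are RefSeq's, on GRCm38.p6.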

Additional observations from a re-analysis of the deposited data

Results flagged for a closer look

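For Trim30a, all 3 allografts lay above the isograft in resident classes and below it in T cells. The log2 ratio of the allogeneic mean to the isograft was 2.79 in endothelial cells, 3.07 in fibroblasts and -1.52 in T cells, so the classes differed by 4.307 and 4.59. The isogeneic T cells were 23 cells with 7 Trim30a UMIs, the T cell value did not pass the test (edgeR adjusted p = 0.65), and the difference between classes was not tested.

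For Trim34b, the log2 ratio of the allogeneic mean to the isograft was -5.32 in endothelial cells, -3.38 in fibroblasts and 1.15 in monocytes and macrophages. This gives differences of -6.466 and -4.525 between classes. It did not pass the edgeR test in endothelial cells (adjusted p = 0.138) or in monocytes and macrophages (adjusted p = 0.434), and it was not fitted in fibroblasts. Allogeneic fibroblasts held 0, 0 and 3 UMIs, and these differences were not tested. For Trim3, the values were -0.25 in endothelial cells and 0.78 in monocytes and macrophages, a difference of -1.032 that was not tested either. Neither Trim3 value passed the edgeR test (adjusted p of 0.721 and 0.126).

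Cells that entered no class also carried the members above the isograft. Trim12a read 15.65 ± 6.94 CPM there (SD, n = 3) against 0.0481 in the isograft, and Trim30d 21.89 ± 4.79 against 0.577. Trim30a read 104.5 ± 13.3 against 22.6, Trim12c 36.69 ± 2.68 against 14.9 and Trim34a 7.342 ± 2.84 against 1.78. The kinds of cell behind these values were not tested.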

How the results depend on the processing

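Over the alternatives, 184 log2 changes of the members between grafts were recomputed, apart from the resident to leukocyte ratios. Of these, 167 kept direction and side of the threshold and 15 gained a call. Another 2 lost one (Trim30a and Trim12c in neutrophils with no UMI of another panel) and 0 reversed. Trim34b, not counted here, gained a call in endothelial cells with no filter and without replicate 3. With classes weighted equally the resident to leukocyte ratio turned its direction for Trim12c and Trim30a: it was 4.49 for Trim12a, -0.030 for Trim12c, -0.10 for Trim30a, 1.86 for Trim30d and 1.11 for Trim34a. For Trim30d it was 1.94 with no UMI of another panel and 5.02 against lymphocytes and neutrophils only. Leaving out 1 allogeneic replicate gave 6.09 to 7.01 for Trim12a, 0.31 to 0.73 for Trim12c, 0.41 to 1.22 for Trim30a, 1.06 to 1.27 for Trim30d and 2.27 to 3.0 for Trim34a.

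The number of genes called was 514 in endothelial cells, 406 in fibroblasts, 0 in T cells, 239 in neutrophils and 1153 in monocytes and macrophages. With no filter it was 1119, 1145 and 76 in the first 3. DESeq2 called 82 in T cells and 1862 in monocytes and macrophages. With no UMI of another panel it was 73 in neutrophils and 684 in monocytes and macrophages. Without 1 allogeneic replicate it was 360 to 4786, 560 to 1323, 0 to 276, 229 to 545 and 448 to 7724 in the same order of classes, the highest value each time without replicate 3. The share of higher calls was 61.5% in endothelial cells and 77.3% in fibroblasts, and 49.5% and 47.7% without replicate 3. The cause was not tested. The gate with no UMI of another panel could not be fitted in endothelial cells, fibroblasts or T cells, nor the gate of 4 markers in T cells, because too few cells were left. No paired analysis was possible because the groups share fewer than 2 replicate numbers. The isogeneic library cannot be left out, and its 23 T cells limit every T cell value.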
